A study of Mus musculus with 6 samples.

Results

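The genes described here, with few exceptions, encode the proteins of the cytosolic ribosome, in MEL cells, a mouse erythroleukemia line, during treatment with DMSO. The exceptions include Rps4l and Rpl32l, annotated as processed pseudogenes, and the assembly factor Rpl7l1. Members were all genes whose symbol follows the pattern of large subunit (Rpl, Rplp) and small subunit (Rps, Rpsa) proteins, with the S6 kinase-like gene Rps6kl1 left out and with 1 transcript per gene, the one with the highest mean count. This rule gave 85 genes of the 23896 that carried a symbol, 53 of the large and 32 of the small subunit, which together owned 104 of the 32654 counted transcripts. After the low-count filter 81 could be tested, 50 large and 31 small subunit genes. The other 4 were the paralogs Rpl10l and Rpl39l with 0 counts in every library, the paralog Rpl3l with at most 4 counts in a library, and the pseudogene Rps4l with at most 3.

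The libraries were mRNA-seq of MEL cells grown in suspension and induced with 2% DMSO, with 2 replicates at day 0 (before induction), 2 at day 2 and 2 at day 4, 6 in all. MEL cells are a transformed line held at an early erythroid stage, so they stand for terminal red cell maturation in culture only. Nothing else distinguished the groups in the labels, and the replicates are called biological in the study's methods.

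A cytosolic ribosome carries a single copy of most of these proteins, except the stalk proteins Rplp1 and Rplp2, so a cell has to make them in matched amounts. Most of their mRNAs begin with a terminal oligopyrimidine (TOP) tract, a run of C and T at the very start of the transcript through which mTOR signalling and the RNA-binding protein Larp1 control translation. Loss of 1 copy of many of these genes in people causes Diamond-Blackfan anemia, a failure of red cell production, which is why the family is of particular interest in erythroid cells.

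To show what such a start looks like, windows of 30 bases around the annotated start are given for genes that the results turn on, from 15 bases before the start to 14 after it, 5′ to 3′ on the gene's own strand. The sequences are from RefSeq promoters of GRCm38.p6, and capitals mark the run of at least 5 C or T that begins with C within 10 bases of the start.
Rpl35 (lower at day 4, chr2:39005117-39005146, minus strand): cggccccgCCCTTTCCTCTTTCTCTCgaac
Rpl34 (lower at day 4, chr3:130730384-130730413, minus strand): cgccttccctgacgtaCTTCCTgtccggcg
Rpl14 (lower at day 4, chr9:120571502-120571531, plus strand): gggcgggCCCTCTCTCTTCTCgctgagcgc
Rpl22l1 (lower at day 4, chr3:28805493-28805522, plus strand): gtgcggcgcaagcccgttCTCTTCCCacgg
Rpl28 (higher at day 4, chr7:4792950-4792979, plus strand): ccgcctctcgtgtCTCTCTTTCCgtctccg
Rpl39 (higher at day 4, chrX:37085208-37085237, minus strand): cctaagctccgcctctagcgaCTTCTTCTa
Rps27 (higher at day 4, chr3:90213634-90213663, minus strand): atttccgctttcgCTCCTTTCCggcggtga
Rpl11 (lower at day 4, no tract by this rule, chr4:136053379-136053408, minus strand): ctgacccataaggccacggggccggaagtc
Genes that were lower and genes that were higher at day 4 both had such a tract at an annotated start.

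Promoter sequence was found for 64 of the 85 genes, with 76 promoters in all, each from 250 bases before to 50 bases after the start. A tract of this kind was present in 42 of the 76 member promoters (55.26%), against 30.72% of all 32851 promoters. The letters CCGGAA, on either strand, were in 46.05% of member promoters and 14.9% of all. AAGATGG was in 15.79% against 6.338%, GGGCGG in 59.21% against 35.66%, and AGATAA in 6.579% against 11.18%. These shares describe letters in a fixed window, on both strands, and none of the letter sets contains another.

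Each library held between 35294930 and 53899476 counts on transcripts, and reads outside annotated features came to 50.5% to 58.4% of the counted reads. The summed level of 9 erythroid markers, among them the globins Hba-a1 and Hbb-bs, Alas2 and the transferrin receptor Tfrc, was 1095 and 1156 CPM (counts scaled to library size) in the day 0 libraries, 4280 and 5085 at day 2 and 17650 and 19800 at day 4. Most of the day 4 sum was globin, with means of 10628 CPM for Hba-a1 and 5036 for Hbb-bs. Klf1 alone among the 9 was lower at day 4 than at day 0 (log2 fold change -0.54, edgeR adjusted p 0.0188). Its log2 fold change was -0.17 without day 0 replicate 2, and that of Gata1 was 0.37 with all libraries. Sums over 6 myeloid, 3 mast cell, 3 lymphoid and 3 fibroblast markers stayed between 0.0442 and 6.89 CPM in every library, with the fibroblast marker Dcn at 0. The mast cell sum was 5.27 and 6.0 CPM at day 0 and at most 0.388 CPM later. Its part in any ribosomal protein result was not tested.

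The 2 day 0 libraries differed from each other more than those of day 2 or day 4 did for this gene family. The CPM of a member differed between the 2 day 0 libraries by more than 0.5 on the log2 scale for 23 of 81 genes (28.4%), against 14.32% of all tested genes. At day 2 this held for 0 members, against 5.531% of all tested genes, and at day 4 for 1 member, against 8.593%. The day 0 share was thus the highest of the 3 days over all tested genes as well. The ratio of replicate 2 to replicate 1 on day 0 was 5.39 for Rpsa, 3.0 for Rps24, 2.72 for Rpl14, 2.67 for Rplp1 and 2.04 for Rplp2. At the other end it was 0.519 for Rps21. The median ratio over the members was 1.00, so neither library was shifted as a whole against the other: a few genes were higher in replicate 2, others lower. Which of the 2 deviates cannot be told from these ratios. Counts over the family, and the members that moved most when day 0 replicate 2 was left out, are given with and without that library. Ranges that include the fits without day 0 replicate 1 are given at the end.

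**Figure D1:**
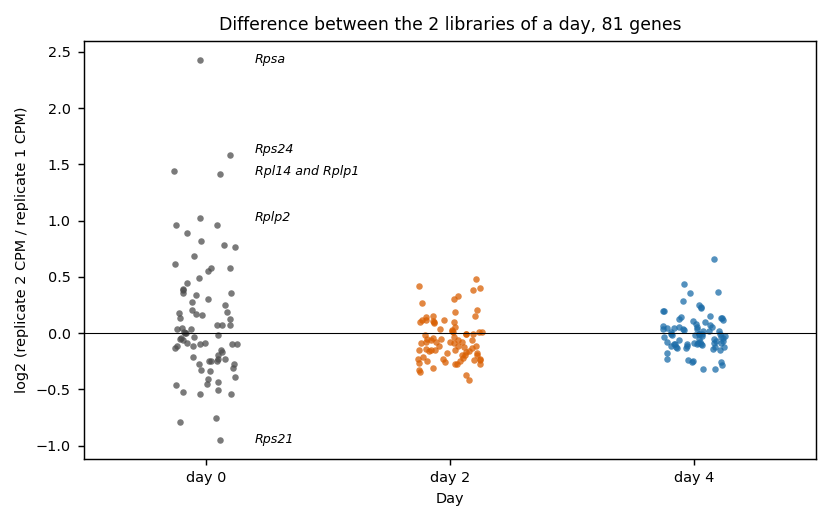
Log2 ratio of normalised CPM in replicate 2 to replicate 1 (vertical axis) at each day (horizontal axis), 1 point per tested ribosomal protein gene (81 genes), with horizontal scatter only for visibility. Day 0 points spread from 0.519 to 5.39 on the linear scale, with Rpsa, Rps24, Rpl14, Rplp1 and Rplp2 the 5 above a ratio of 2, while day 2 and day 4 ratios lay between 0.752 and 1.58.

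The whole family took 2.08% and 2.31% of the counts on transcripts in the day 0 libraries, 2.14% and 2.06% at day 2, and 1.66% and 1.54% at day 4. Day 0 and day 2 overlapped and day 4 lay below both. Globin transcripts rose over the same time from at most 0.0384% to 3.73% of counts. The large subunit took 1.25% and 1.36% at day 0 and 0.925% and 0.863% at day 4, and the small subunit 0.829% and 0.955% against 0.733% and 0.678%. The ratio of large to small subunit counts was 1.51 and 1.42 at day 0, 1.41 and 1.46 at day 2, and 1.26 and 1.27 at day 4. Divided by transcript length it was 1.48 and 1.39, then 1.43 and 1.47, then 1.25 and 1.27. In either form day 4 lay below the other days in every library, and with 2 against 2 libraries the smallest p that an exact permutation test can give is 0.333, so these values are a description.

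**Figure D2:**
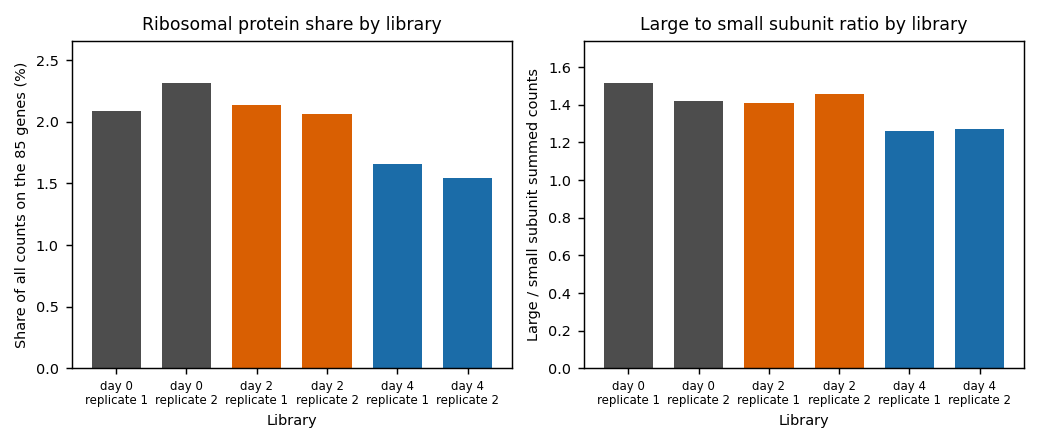
Left, share of all transcript counts on the 85 ribosomal protein genes (%), and right, summed counts of large subunit over small subunit genes, for each of the 6 libraries (bars, from 0; grey day 0, orange day 2, blue day 4). The share was 1.66% and 1.54% at day 4 against 2.06% or more earlier, and the ratio 1.26 and 1.27 against 1.41 or more earlier.

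The first question the design poses is which ribosomal protein mRNAs differ after 4 days of DMSO. At day 4 against day 0, 51 of the 81 tested genes were lower and 5 higher by edgeR's quasi-likelihood test at an adjusted p below 0.05, where 36.4% of all 12381 tested genes were lower, 35.5% higher and 71.8% called in one direction or the other. The median log2 fold change of the family was -0.46, against -0.02 over all tested genes. With day 0 replicate 2 left out the counts were 51 lower and 6 higher and the median -0.36, against 36.6% and 34.9% of all genes, 71.5% together. The call and its direction remained for 51 of the 56 called members without that library, 5 were lost (Rpl9, Rpl26, Rpl39, Rps10 and Rps27) and 6 gained. In bulk RNA, fewer transcripts per cell and a changed make-up of the rest of the mRNA pool cannot be told apart.

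The large and small subunits differed in how many genes were called. Of 50 large subunit genes 38 were lower and 2 higher at day 4 than at day 0, with a median of -0.55, and 45 of the 50 had a fold change below 0. Of 31 small subunit genes 13 were lower and 3 higher, with a median of -0.26, and 20 of the 31 had a fold change below 0. Over all tested genes 36.4% were lower and 35.5% higher. The share lower in the small subunit (41.9%) thus lay near the background, while its share higher (9.68%) lay below it. The same fit without day 0 replicate 2 had 37 large subunit genes lower and 2 higher with a median of -0.50, and 14 small subunit genes lower and 4 higher with a median of -0.26. Scaling by library totals alone moved the median of all genes from -0.02 to 0.10 on the log2 scale. The small subunit split was then 9 lower and 6 higher and the large 34 lower and 3 higher. In that fit 32.36% of all tested genes were lower and 39.71% higher, against 29.03% and 19.35% of the small subunit and 68% and 6% of the large. In the plain count of libraries, all day 4 values lay below all day 0 values for 53 of the 81 genes and above them for 10, while 84.8% of all tested genes had libraries that did not overlap in one direction or the other.

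**Figure D3:**
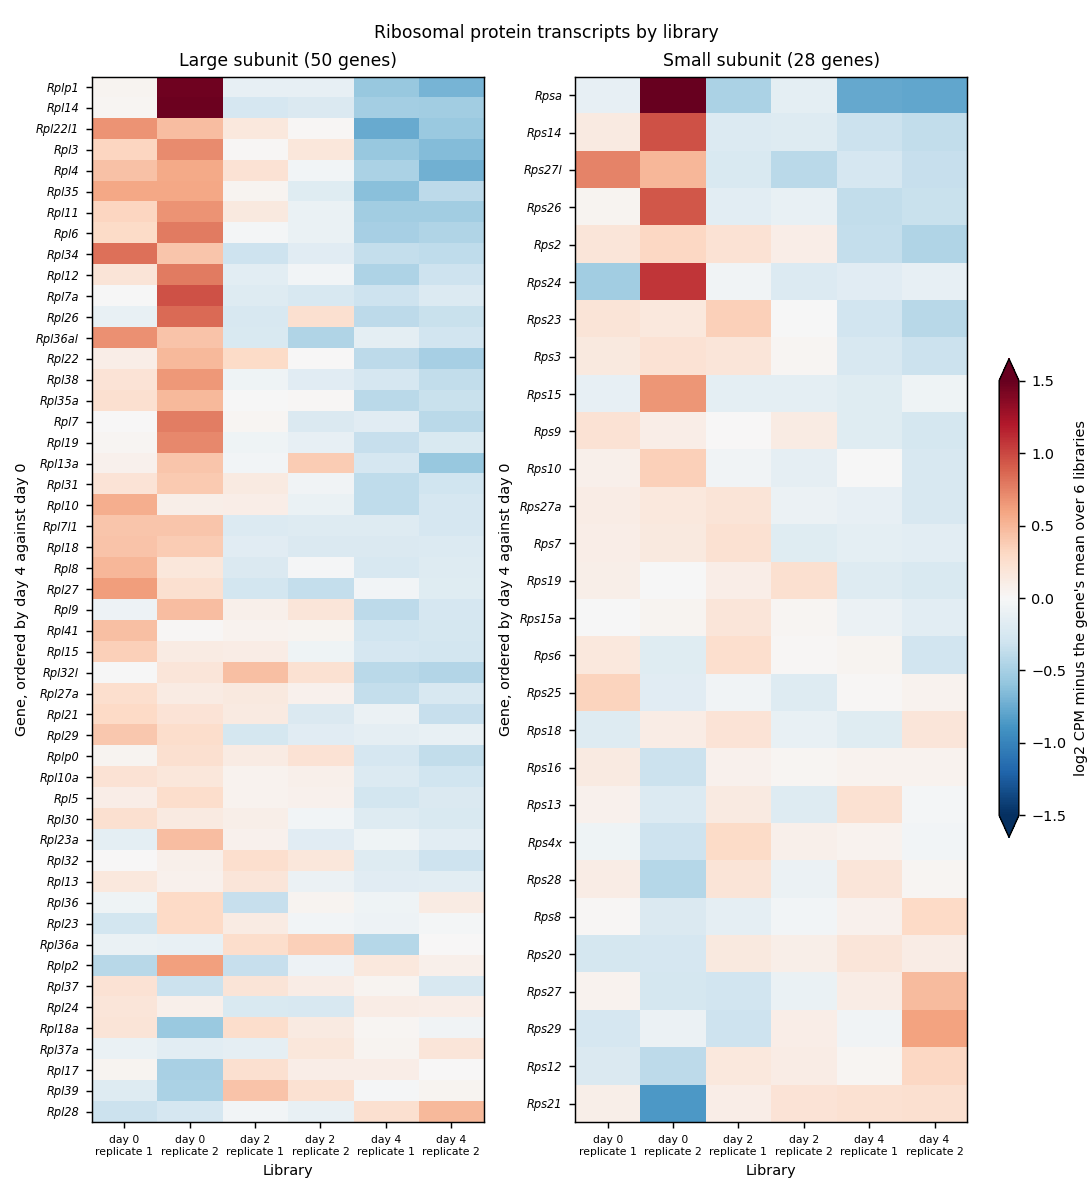
Log2 normalised CPM of a gene minus its mean over the 6 libraries (colour, red higher, blue lower, limited to 1.5 either way), for 50 large (left) and 28 of the 31 small subunit genes (right) in rows, ordered by the fold change of day 4 against day 0, and the 6 libraries in columns. Most large subunit genes went from red at day 0 to blue at day 4, and day 0 replicate 2 held the darkest red for Rplp1, Rpl14 and Rpsa.

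**Figure D4:**
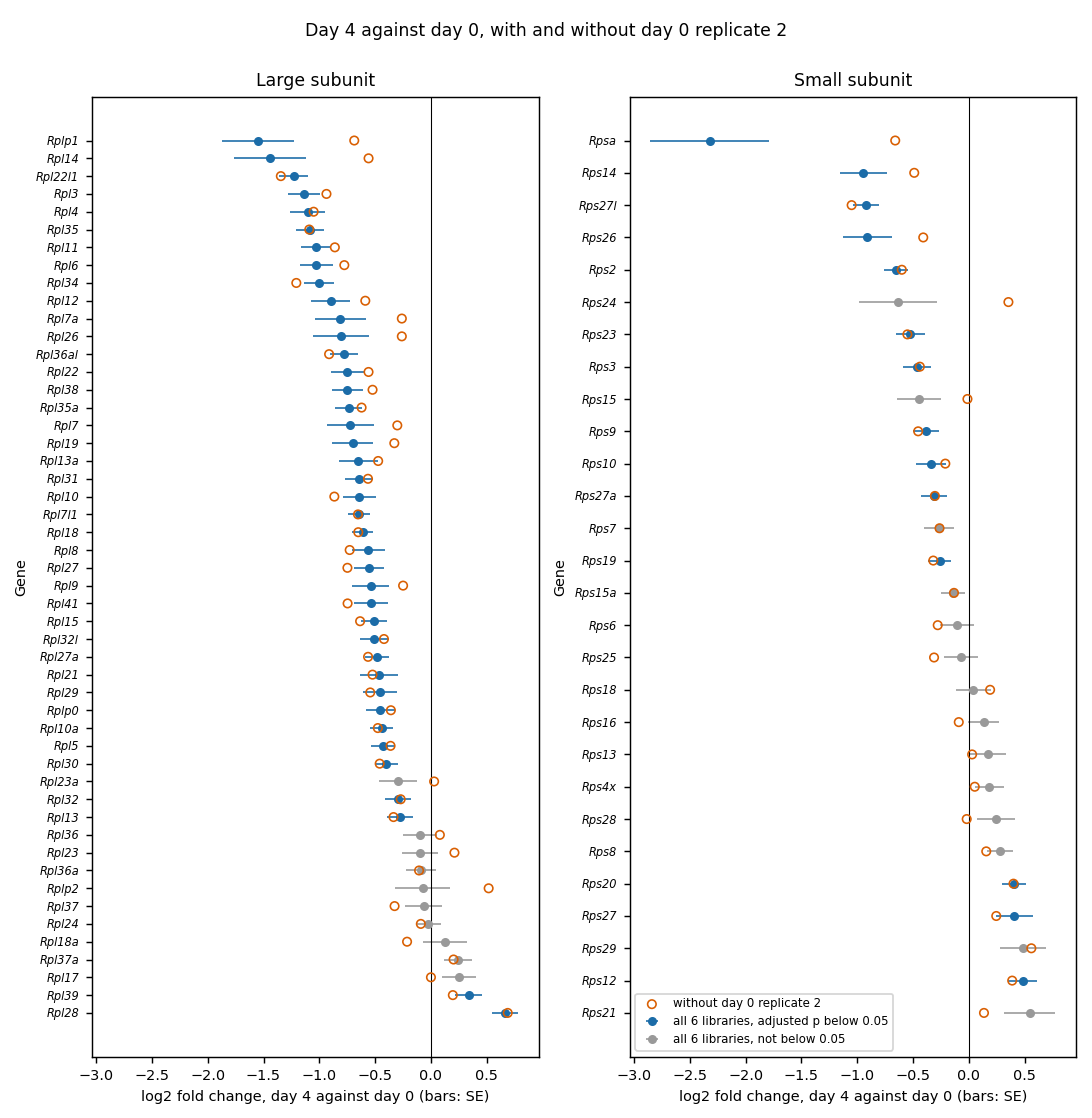
Log2 fold change of day 4 against day 0 (horizontal axis) for 50 large subunit genes (left) and 28 of the 31 small subunit genes (right) on the vertical axis. Filled points are the fit of all 6 libraries with SE bars, blue where adjusted p was below 0.05 and grey elsewhere, and open circles the fit without day 0 replicate 2, which lay at -0.66 for Rpsa against -2.32 and at 0.36 for Rps24 against -0.63.

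The falls that did not rest on 1 library were led by large subunit proteins. Rpl22l1, a paralog of Rpl22, stood at 43.7 and 37.7 CPM on day 0, 30.6 and 27.5 on day 2, and 16.1 and 18.5 on day 4. The days did not overlap, and the log2 fold change of day 4 against day 0 was -1.23 (SE 0.13, edgeR adjusted p 8.59e-06). It was -1.34 without day 0 replicate 2.

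Rpl3 and Rpl4 are core proteins of the large subunit, Rpl3 near the peptidyl transferase centre and Rpl4 at the wall of the exit tunnel. Rpl3 gave 311 and 409 CPM on day 0, 252 and 280 on day 2, and 169 and 160 on day 4, a log2 fold change of -1.13 from day 0 to day 4 (SE 0.14, edgeR adjusted p 2.73e-05) and -0.94 without day 0 replicate 2. Rpl4 was among the most abundant members, with 2616 and 2863 CPM on day 0, 2241 and 1874 on day 2, and 1381 and 1166 on day 4, and it fell by 1.11 on the log2 scale (SE 0.15, edgeR adjusted p 6.07e-05), with -1.05 without that library. In Rpl3 and Rpl4 alike each day lay wholly below the day before.

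Rpl35, which sits beside the exit tunnel, stood at 303 and 304 CPM on day 0, 210 and 180 on day 2 and 132 and 155 on day 4, a log2 fold change of -1.08 (SE 0.13, edgeR adjusted p 1.58e-05) and -1.09 with day 0 replicate 2 left out. Rpl11 joins the ribosome with Rpl5 and the 5S rRNA, and when free it binds the p53 ligase Mdm2. Its CPM were 94.1 and 119 on day 0, 83.1 and 70.2 on day 2 and 52.4 and 52.1 on day 4, a log2 fold change of -1.03 (SE 0.13, edgeR adjusted p 3.50e-05), against -0.86 without day 0 replicate 2. Rpl5, its partner, changed less, from 187 and 209 CPM on day 0 to 144 and 150 on day 4, a log2 fold change of -0.43 (edgeR adjusted p 0.00393) and -0.36 without that library. Rpl6 and Rpl34 fell by 1.03 and 1.00 on the log2 scale, Rpl34 from 84.8 and 64.0 CPM on day 0 to 38.6 and 42.6 on day 2 and 37.4 and 36.8 on day 4. Without day 0 replicate 2 these log2 fold changes were -0.78 and -1.21.

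The largest fitted falls, by contrast, rested on day 0 replicate 2. Rpsa, a small subunit protein first described as a laminin receptor precursor, had 138 CPM in day 0 replicate 1 and 744 in replicate 2, then 109 and 136 on day 2 and 88.3 and 88.1 on day 4. Its log2 fold change of day 4 against day 0 was -2.32 (SE 0.54, edgeR adjusted p 0.00231) with all libraries and -0.66 (SE 0.12, edgeR adjusted p 0.000198) without that library. The direction held and the size did not.

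Rplp1, a stalk protein that helps to recruit elongation factors, had 329 and 879 CPM on day 0, 294 and 292 on day 2, and 215 and 198 on day 4, which gave -1.55 with all libraries and -0.69 without day 0 replicate 2. Rpl14 had 69.5 and 189 CPM on day 0, 57.1 and 58.4 on day 2, and 47.9 and 47.3 on day 4, which gave -1.44 and -0.56. Rps24 changed direction without that library. Its CPM were 239 and 716 on day 0, 330 and 296 on day 2, and 303 and 312 on day 4. The log2 fold change was -0.63 with all libraries (edgeR adjusted p 0.126) and 0.36 without day 0 replicate 2. Rplp2, the other stalk protein, likewise went from -0.08 (edgeR adjusted p 0.793) to 0.52, with 39.1 and 79.8 CPM on day 0 and 58.1 and 54.9 on day 4. Leaving out day 0 replicate 1 instead moved Rps24 and Rplp2 further below 0. Which day 0 library deviates cannot be told from 2 libraries.

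Rps3, a small subunit protein of the mRNA entry site whose day 0 libraries were close, went from 1370 and 1444 CPM on day 0 to 1050 and 989 on day 4. Its log2 fold change was -0.46 (edgeR adjusted p 0.00687). Rps6, the substrate of the S6 kinases, had 398 and 315 CPM on day 0 and 368 and 294 on day 4, which overlapped (log2 fold change -0.11, edgeR adjusted p 0.548). Without day 0 replicate 1 the fold change of Rps6 was 0.06 (edgeR adjusted p 0.687).

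A total of 5 members were higher at day 4 than at day 0. Rpl28 had 34.6 and 36.3 CPM on day 0, 42.3 and 40.1 on day 2, and 51.3 and 61.0 on day 4, a log2 fold change of 0.66 (SE 0.12, edgeR adjusted p 0.000376). All day 4 values lay above all earlier ones. Rps20, from 260 and 262 CPM on day 0 to 347 and 333 on day 2 and 355 and 337 on day 4, had a log2 fold change of 0.41 (SE 0.11, edgeR adjusted p 0.00587). Rpl28 and Rps20 were the only members called higher both with all 6 libraries and without each library in turn, where 27.9% of all tested genes were. Under that same requirement 38 members were lower, 29 of the large and 9 of the small subunit, against 29.6% of all tested genes.

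The other members called higher were Rps12, Rps27 and Rpl39. Rps12 had 23.7 and 21.1 CPM on day 0 and 28.2 and 34.3 on day 4, a log2 fold change of 0.48 (edgeR adjusted p 0.00617). Rps27 had 11.9 and 9.59 CPM on day 0 and 12.4 and 16.0 on day 4, a log2 fold change of 0.41 (edgeR adjusted p 0.0458), and without day 0 replicate 2 its adjusted p was 0.202. Rpl39, a small protein of the exit tunnel, had 74.8 and 61.8 CPM on day 0, 115 and 101 on day 2 and 84.6 and 88.2 on day 4, a log2 fold change of 0.34 (edgeR adjusted p 0.0253, and 0.127 without day 0 replicate 2). Its highest values were on day 2.

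The second question is at which step the change took place. At day 2 against day 0, 27 members were lower and 5 higher, where 31.5% of all tested genes were lower, 31% higher and 62.5% called in one direction or the other, and the median log2 fold change was -0.21 against 0.01 over all tested genes. The share of members lower at this step was thus close to that of all genes, while the share higher was below it. The large subunit had 22 of 50 lower and 2 higher with a median of -0.31, and the small subunit 5 of 31 lower and 3 higher with a median of -0.08. When day 0 replicate 2 was left out, 24 members were lower and 7 higher with a median of -0.11, against 31.5% and 29.6% of all genes (61.0% together), and 23 of the 32 calls remained, 9 were lost and 8 gained. With library totals alone the split was 16 lower and 14 higher, with 12 lower and 8 higher in the large and 4 lower and 6 higher in the small subunit. That scaling moved the median of all tested genes from 0.01 to 0.21, and it gave 5001 higher and 2881 lower of 12381 genes. The number of members called at this early step also changed when day 0 replicate 1 or either day 2 library was left out. Whether it changed more than for all tested genes was not tested. Libraries of these days did not overlap for 35 members that were lower and 11 that were higher, against 80.5% of all tested genes in one direction or the other. The call held with every library left out in turn for 9 lower members, among them Rpl6, Rpl7l1, Rpl18, Rpl27, Rpl34, Rpl35, Rpl36al and Rps27l, and for 1 higher, Rpl39, against 20.8% and 20.7% of all tested genes.

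At day 4 against day 2, which does not use the day 0 libraries other than for the spread, 20 members were lower and 3 higher, where 16.2% of all tested genes were lower, 14% higher and 30.3% called in one direction or the other, and the median was -0.22 against -0.00 over all tested genes. The large subunit had 15 lower and 2 higher with a median of -0.28, and the small subunit 5 lower and 1 higher with a median of -0.07. Fitted without day 0 replicate 2, 37 were lower and 5 higher, with the same median of -0.22, against 22.7% and 20.7% of all genes (43.4% together), and all 23 calls remained. Leaving out any other single library also changed the number of members called, and whether more than for all tested genes was not tested. Libraries of these days did not overlap for 46 lower and 9 higher members, against 74.0% of all tested genes. Only Rpl22l1 and Rpl32l were called lower with every library left out in turn, where 4.68% of all tested genes were.

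Step by step, 6 members were lower at each step (Rpl3, Rpl4, Rpl11, Rpl22l1, Rpl35 and Rpl35a), where 9.05% of all tested genes were. Of these, only Rpl35 kept its call at the first step with every library left out in turn, and only Rpl22l1 its call at the second. A further 20 were lower at the first step only, 13 at the second step only, and 34 were called at neither, against 20.8%, 5% and 28.4% of all tested genes. The 2 members that turned were Rpl36a and Rpl24, and neither kept its call at either step with every library left out in turn. Rpl36a went from 88.8 and 87.8 CPM on day 0 up to 114 and 122 on day 2 and down to 70.7 and 95.6 on day 4, with log2 fold changes of 0.42 (edgeR adjusted p 0.0188) and -0.51 (edgeR adjusted p 0.0172). Rpl24, a protein of the bridge between the subunits, went from 31.9 and 29.5 CPM down to 24 and 23.7 and back to 30.3 and 30.2, with -0.36 (edgeR adjusted p 0.0149) and 0.34 (edgeR adjusted p 0.0396).

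An early fall with little change afterwards was seen in Rpl18, whose day 0 libraries were close. It had 88.6 and 85.5 CPM on day 0, 58.5 and 56.4 on day 2 and 56.6 and 57.3 on day 4. It fell by 0.60 on the log2 scale in the first step (edgeR adjusted p 0.000321), and its fold change in the second was -0.01. Late falls were led by Rpl32l, Rpl22l1, Rpl3 and Rpl4, at -0.76, -0.74, -0.70 and -0.69 from day 2 to day 4. Rps2, which had 95 and 104 CPM on day 0, 97.4 and 89.9 on day 2 and 65.3 and 61.2 on day 4, also fell in the second step, by 0.57 on the log2 scale (edgeR adjusted p 0.00288).

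Paralogs were compared with the genes they resemble. Rps27l, which is induced by p53 in other settings, fell by 0.94 on the log2 scale in the first step (edgeR adjusted p 5.23e-05), from 121 and 102 CPM on day 0 to 61.8 and 54.6 on day 2 and 61.0 and 57.1 on day 4. Its counts were 10.2 and 10.7 times those of Rps27 on day 0, 6.58 and 5.10 times on day 2, and 4.90 and 3.58 times on day 4. The Rps27 record counted was a non-coding one, so this ratio may not be that of the coding mRNAs. The log2 change of that ratio from day 0 to day 4 was -1.31, and the libraries of these days did not overlap (two-sided exact permutation p 0.333, the smallest that 2 against 2 can give).

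Rpl36al, also lower at day 2 than at day 0, moved opposite to Rpl36a at that step. It had 126 and 106 CPM on day 0, 66.9 and 57.1 on day 2, and 70.4 and 64.4 on day 4, with a log2 fold change of -0.90 at the first step (edgeR adjusted p 9.83e-05). The ratio of Rpl36al to Rpl36a was 1.42 and 1.20 on day 0, 0.586 and 0.468 on day 2, and 0.997 and 0.673 on day 4, so the order of the pair turned between day 0 and day 2 in every library (log2 change -1.32, exact permutation p 0.333).

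Rpl22l1 and Rpl22 were lower together. Rpl22 had 315 and 411 CPM on day 0, 357 and 295 on day 2, and 224 and 208 on day 4, a log2 fold change of -0.75 from day 0 to day 4 (edgeR adjusted p 0.000873) and of -0.56 without day 0 replicate 2. The ratio of Rpl22l1 to Rpl22 was 0.139 and 0.0917 on day 0 and 0.0720 and 0.0892 on day 4. The highest counted record of Rpl22 and of Rps27 was a non-coding one, so their levels may not be those of the coding mRNA.

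Rpl7l1, which is a factor of nucleolar ribosome assembly rather than a copy of Rpl7 in the ribosome, had 128 and 128 CPM on day 0, 83.2 and 83.8 on day 2, and 83.9 and 80.2 on day 4, a log2 fold change of -0.64 from day 0 to day 4 (SE 0.10, edgeR adjusted p 0.000125). Its ratio to Rpl7 overlapped between days, with a log2 change of 0.03 from day 0 to day 4, and this was -0.35 without day 0 replicate 2. Rpl32l, annotated as a processed pseudogene inside Map7 on chromosome 10, had 0.435 to 0.573 times the counts of Rpl32 in the 6 libraries. How its reads and those of Rpl32 were divided was not tested.

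**Figure D5:**
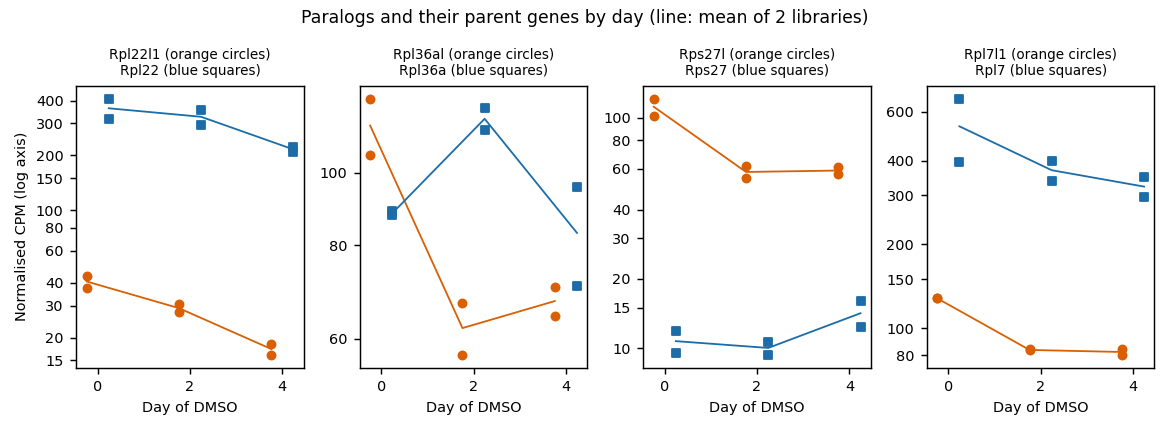
Normalised CPM (vertical, log axis) of 4 paralogs (orange circles) and their parent genes (blue squares) on days 0, 2 and 4 (horizontal axis), 2 libraries per day, with lines through the daily means. Rpl36al lay above Rpl36a at day 0 and below it at day 2, while Rps27l stayed above Rps27 and came down from 121 and 102 to 61.0 and 57.1 CPM. The records counted for Rps27 and Rpl22 were non-coding ones.

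Members whose human counterparts are linked to Diamond-Blackfan anemia were set beside the rest of the family, without a test of the difference. Of these 20 genes 13 were lower and 1 higher at day 4 against day 0, with a median log2 fold change of -0.52, and of the 61 other tested members 38 were lower and 4 higher, with a median of -0.46. Over all tested genes 36.4% were lower and 35.5% higher. With day 0 replicate 2 left out, 11 of the 20 were lower and 2 higher (median -0.34), and 40 of the 61 others were lower and 4 higher (median -0.42), so which of the lists had the lower median turned with that library. Rps19, the gene most often altered in the disease, had 98.0 and 92.0 CPM on day 0, 98.3 and 109 on day 2, and 80.2 and 78.3 on day 4, a log2 fold change of -0.26 (edgeR adjusted p 0.0404). Rps26, a protein at the mRNA exit, had 311 and 578 CPM on day 0 and 234 and 240 on day 4, with -0.91 with all libraries and -0.41 without day 0 replicate 2. Rps29 had the highest fold change of the members of this list that missed the test, 0.48 (edgeR adjusted p 0.0540).

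Per kilobase of transcript, the members covered a wide range of levels. Among the highest over the 6 libraries were Rpl41, the smallest ribosomal protein, at 2691 CPM per kb, Rpl4 at 1316, Rpl8 at 1292 and Rps14 at 1243, and the lowest of those tested were Rpl21 at 7.54, Rpl29 at 10.1, Rps27 at 21.4, Rpl12 at 25.5 and Rps13 at 26.2. Ribosomal protein genes have many processed pseudogenes, and a median of 58.5% of the 31-base words of a member transcript also occurred in another gene or pseudogene of the GENCODE transcripts, from 0 in Rpl3l to 94.1% at most. Rpl8 shared 9.99% of its words with other loci and Rpl41 shared 64.6%.

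Over the 81 tested genes the share of words found elsewhere had a Spearman rho of -0.21 with the level per kb and 0.09 with the log2 fold change of day 4 against day 0. These are correlations over genes of the same libraries, which share depth and scaling. Genes with at most 50% of words elsewhere had 14 of 23 lower and 2 higher, median -0.46, and those above 50% had 37 of 58 lower and 3 higher, median -0.46, where 36.4% of all tested genes were lower. Leaving out day 0 replicate 2 gave 15 lower (median -0.44) and 36 lower (median -0.33). The 4 tested genes with at most 20% elsewhere included Rps3, Rpl8 and Rps20, and all 4 were called, 3 lower and 1 higher.

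The gene bodies of 29 members overlap snoRNA genes (counted with the related scaRNA class), 57 in all, among them 5 in Rpl4. Whether these lie in introns was not checked. At day 4 against day 0, 36.4% of all tested genes were lower and 35.5% higher. Of the 29 members 17 were lower and 3 higher, with a median of -0.40. Of the 52 other tested members 34 were lower and 2 higher, with a median of -0.52. In the fit without day 0 replicate 2 these were 18 lower with a median of -0.34 and 33 lower with a median of -0.41, against 36.6% of all genes. The difference was not tested.

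Of the 37 tested genes with a tract at an annotated start, 25 were lower and 4 higher over the same days, and of the 24 with a promoter but no tract 14 were lower and 0 higher, where 36.4% of all tested genes were lower and 35.5% higher. The median log2 fold changes were -0.52 and -0.45, or -0.45 and -0.33 without day 0 replicate 2. The difference between genes with and without a tract was not tested.

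Rps27a, the member that encodes ubiquitin fused to a small subunit protein, had a log2 fold change of -0.31 at day 4 against day 0 (edgeR adjusted p 0.0300). Of the ribosomal proteins whose symbols lie outside the pattern, Fau, a ubiquitin-like fusion, fell by 0.50 on the log2 scale (edgeR adjusted p 0.00204), and Rack1 had -0.27 (edgeR adjusted p 0.159). The call on Rack1 turned on day 0 replicate 2, without which it was lower at -0.48 (edgeR adjusted p 0.00236).

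Other mRNAs with a TOP tract, chiefly translation factors, had 9 of 14 lower and 1 higher at day 4 against day 0, with a median of -0.81, where 36.4% of all tested genes were lower and 35.5% higher. Npm1, a nucleolar chaperone, fell by 1.88 on the log2 scale and Eef1d, an elongation factor subunit, fell by 1.69, while Tpt1, a small growth-associated protein, rose by 1.02. The abundant Eef1a1, Eef2 and Pabpc1 were not called, at -0.23, -0.02 and -0.20. Eef1a1 was lower without day 0 replicate 2, at -0.47 (edgeR adjusted p 0.00473). Among 17 partners and regulators of ribosomal proteins 9 were lower and 5 higher, 14 in all, against 71.8% of all tested genes called. Of the chaperones and carriers of single ribosomal proteins, Heatr3 (for Rpl5) fell by 1.87, Grwd1 (for Rpl3) fell by 1.55, Bccip (for Rpl23) fell by 1.05 and Tsr2 (for Rps26) fell by 0.47. Bccip had 47.4 and 75.4 CPM on day 0, and its log2 fold change was -0.69 without replicate 2 of that day. Larp1 had -0.38 (edgeR adjusted p 0.00733), Mtor 0.22 (edgeR adjusted p 0.0784) and Rps6kb2 1.36 (edgeR adjusted p 4.60e-06).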

How the data were processed

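The authors made stranded mRNA-seq libraries, trimmed adapters with cutadapt, aligned reads to mm10 (GRCm38) with TopHat, set to the library type fr-secondstrand and to allow up to 10 placements per read, and deposited unscaled read counts, 1 file for each of 6 libraries with a line per RefSeq transcript. HTSeq and DESeq2 are named in the submitters' processing notes. The strand setting of the counting, its treatment of reads with several placements and the annotation release are not given in the sources used here. A gene on the opposite strand overlaps 23 members, and what strand settings did to their counts or to the share of reads in no feature was not tested. Reads listed as falling in no feature (50.5% to 58.4% of counted reads) were left out. Day and replicate came from the sample titles.

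Accessions were matched to symbols with a RefSeq table (32199 transcripts) and GENCODE (187), and 268 had none. Counts were fitted with edgeR 4.0.16 (R 4.3.3) by a quasi-likelihood model (glmQLFit, glmQLFTest) in which each day had a mean and all 6 libraries shared 1 estimate of the spread, with TMM factors and the filterByExpr filter, which kept 18351 transcripts. Benjamini-Hochberg adjustment ran over all of them, and genes with an adjusted p below 0.05 were called. The 12381 genes whose highest-count transcript was kept form the background. CPM were computed with TMM-scaled library sizes, and levels per kb use the length of a matched GENCODE transcript, which is uncertain for Rps20, Rpl22 and Rpl32l (for the latter pair it is from another transcript of the gene). Standard errors come from the F statistic. P-values measure the spread between these 6 libraries. Paralog ratios were compared by exact permutation tests. On simulated counts for day 4 against day 0 (18125 transcripts) the fit recovered 52.2% of 1.5-fold, 94.0% of 2-fold and 100% of 4-fold changes with 8 false calls. Only 67, 67 and 66 transcripts were changed, and the spread was that of the trend over all transcripts, not of each gene. In the data 71.8% of tested genes were called, so these rates need not hold for the members.

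The members and gene lists were chosen with earlier results of these data known. Named members were the 8 largest rises and falls for day 4 against day 0 and the 4 largest for each step (called, average log2 CPM of at least 1, libraries not overlapping), paralogs and their parents, Diamond-Blackfan genes, stalk and other fixed proteins, the 5 highest and 5 lowest levels, and members called at each step. Rps2 and Rps27a were named after their values were seen. Some genes are not reported here by name or in the plots of single genes, though counts and medians include them. Alternatives were DESeq2 1.42.0, other scalings, no filter, fewer libraries, a replicate block, a fold limit, counts summed per gene and members with few shared words.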

Additional observations from a re-analysis of the deposited data

How the results depend on the processing

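All alternatives were planned. The test called 32 members at the first step (day 0 to day 2), 23 at the second (day 2 to day 4) and 56 between days 0 and 4. With each library left out in turn these counts ranged from 13 to 50, from 3 to 43 and from 42 to 65. The step counts thus depended on single libraries, and the cause was not tested. With only the 2 days compared in the fit, 43 members were called for day 4 against day 2. Requiring at least 1 in size on the log2 scale, the counts were 3, 0 and 10. Only members with at least 80% of words found nowhere else gave 2, 2 and 4 called, since only 4 such members were tested. The shares of all tested genes are not set here beside the counts from these alternatives. Those counts are thus not read as particular to the family.

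The median log2 fold change of the large subunit was -0.31, -0.28 and -0.55 for the 3 comparisons in that order and -0.11, -0.37 and -0.43 with library totals alone. Left-out libraries gave -0.35 to -0.17, -0.31 to -0.21 and -0.57 to -0.50, and Rpl8, the only tested large subunit member with few shared words, -0.46 and -0.10 for the steps. The small subunit had -0.08, -0.07 and -0.26, and with library totals alone 0.12, -0.15 and -0.15. Left-out libraries gave -0.13 to -0.00, -0.15 to 0.011 and -0.28 to -0.22, and members with few shared words -0.39 at the second step and -0.46 between days 0 and 4.

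Counting all transcripts of the member genes gave shares of 2.5%, 2.37% and 1.8% of counts at days 0, 2 and 4, against means of 2.2%, 2.1% and 1.6%. With each library left out these shares ranged from 2.08% to 2.31%, from 2.06% to 2.14% and from 1.54% to 1.66%. With few shared words the large to small subunit ratio was that of Rpl8 alone to the small subunit members, 0.439, 0.348 and 0.422, against 1.47, 1.43 and 1.27. The log2 change of the Rpl7l1 to Rpl7 ratio from day 0 to day 4 was 0.03 and ranged from -0.35 to 0.42 with 1 library left out.

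Of the genes that were not called for day 4 against day 0, Rpl24 was at 0.092, Rpl36a at 0.025, Rplp2 at 0.045 and Rps6 at 0.0082 with library totals alone, against values below 0 with TMM factors. That scaling moved the median of all genes from -0.02 to 0.10, a shift these genes share. With 1 library left out Rpl24 ranged from -0.090 to 0.029, Rpl36a from -0.33 to 0.11, Rplp2 from -0.50 to 0.52, Rps24 from -1.22 to 0.36, Rps28 from -0.019 to 0.53 and Rps6 from -0.28 to 0.064. Left-out day 0 replicates set these limits in every one of these genes but Rpl36a, where day 4 replicates did. Without day 4 replicate 2 Rps6 was at 0.040.

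With the replicate number as a block the counts were 33, 23 and 57. In that fit 36.16% of all tested genes were lower and 35.51% higher between days 0 and 4. Same-numbered libraries of different days deviated together only weakly (correlations of 0.03, 0.05 and 0.08 over 18351 transcripts), so the numbers were not taken to pair the libraries. With DESeq2 32, 26 and 55 members were called. Between days 0 and 4 it called 61.45% of 83 members lower and 4.819% higher, against 27.47% and 25.48% of 16111 genes. At the first step these shares were 32.53% and 6.024%, against 23.57% and 21.22%. At the second step they were 27.71% and 3.614%, against 11.73% and 10.57%. With 1 library left out its day is a lone sample assumed to vary like the other days. With 2 libraries per day the spread is poorly known, and reads shared with pseudogenes limit the level of any 1 member.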
